A study of Homo sapiens with 4 samples.

Results

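The core hnRNP genes were examined as a group in HEK293T cells, an established human embryonic kidney line, from which nuclear and cytoplasmic RNA had been sequenced. The group was chosen by symbol, as abundant hnRNPs, and has 10 listed genes: HNRNPA1, HNRNPA2B1, HNRNPA3, HNRNPC, HNRNPD, HNRNPH1, HNRNPK, HNRNPL, HNRNPM and HNRNPU. The table has 51740 rows, and 9 of the 10 symbols have a row in it. HNRNPA1 has no row under its symbol or its identifier, and its level was not analysed here. The cells were wild type and formaldehyde crosslinked in both groups, and 2 biological replicates were taken as the nuclear fraction and 2 as the cytoplasmic fraction. Each of the 4 libraries was made from 400 ng of ribodepleted RNA with a stranded kit and read in pairs of 100 bases. The value used for each gene is the authors' mean normalized count over all 4 libraries, so every level below pools nuclear and cytoplasmic RNA. The 2 fractions weigh equally in this mean, whatever their shares of a cell's RNA, so no level is that of a whole cell. The authors' own comparison of the fractions was not used, and no value per library was analysed, so a difference between the fractions is not given here. In addition, fewer transcripts per cell and fewer cells cannot be told apart in such bulk samples.

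Heterogeneous nuclear ribonucleoproteins (hnRNPs) are abundant RNA-binding proteins that coat pre-mRNA as it is transcribed and take part in splicing, 3′ end formation, export, translation and decay. Most of them bind RNA through RNA recognition motifs or KH domains, often at short repeated sequences, and many of them shuttle between nucleus and cytoplasm. Several hnRNP genes are known for alternative transcripts that retain introns or are targets of nonsense-mediated decay, and some have many processed pseudogenes, which are copies of the spliced mRNA put back into the genome.

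Stretches of the coding sequence of HNRNPC, HNRNPA3 and HNRNPL are printed because each was found letter for letter at another place in hg38, so that a read of 100 bases from within it has another exact match. The sequences were read from GENCODE 44 transcripts, 5′ to 3′, and the capitals mark the 10 bases around each exon junction. Every printed stretch crosses at least 2 junctions, so the copy holds the spliced order of exons. The HNRNPC stretch covers transcript bases 371 to 542 and its copy lies at chr2:189923499-189923670 on the plus strand, in the pseudogene HNRNPCP2 inside the gene C2orf88. The HNRNPA3 stretch is the first 240 bases of a run of 578 bases, and its copy lies at chr3:75214572-75214811 on the plus strand, in HNRNPA3P6. The HNRNPL stretch covers transcript bases 816 to 1016 and its copy lies at chr15:34489772-34489972 on the minus strand, in HNRNPLP2.
HNRNPC: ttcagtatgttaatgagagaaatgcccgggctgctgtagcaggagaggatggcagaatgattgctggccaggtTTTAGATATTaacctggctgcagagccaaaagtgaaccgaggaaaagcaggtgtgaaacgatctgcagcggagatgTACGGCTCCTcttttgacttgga
HNRNPA3: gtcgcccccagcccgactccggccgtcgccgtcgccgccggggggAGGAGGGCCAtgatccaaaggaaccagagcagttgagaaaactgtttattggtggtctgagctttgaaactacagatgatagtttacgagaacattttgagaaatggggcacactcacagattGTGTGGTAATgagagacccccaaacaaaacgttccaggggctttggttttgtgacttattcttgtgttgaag
HNRNPL: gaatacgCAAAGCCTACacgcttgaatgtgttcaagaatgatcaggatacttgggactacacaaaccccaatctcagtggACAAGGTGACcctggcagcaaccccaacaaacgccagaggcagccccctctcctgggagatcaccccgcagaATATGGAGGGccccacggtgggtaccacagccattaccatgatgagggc

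All 9 measured hnRNP genes were among the more abundant protein-coding genes. They were listed as abundant hnRNPs, so a high place among protein-coding genes was partly built into the choice. Per kb of canonical transcript, HNRNPA3 stood above 85.3% and HNRNPC above 98.99% of 19001 protein-coding genes with a length, and the other 7 fell between them. The 9 genes together held 0.277% of all normalized counts, or 0.329% of those of protein-coding genes. Their median was 5703 normalized counts. A mean normalized count grows with the length of the RNA, so the levels of genes were set against each other per kb, and 3 lengths were used: the canonical transcript, all annotated exons joined, and the whole gene span with its introns. Reads over exons and introns were counted together by the authors, so none of the 3 lengths is the single correct one for a library that mixes spliced and unspliced RNA. A length without the bases that a gene shares with other genes (per unshared kb) was added as a further alternative, because the authors left such stretches out of the counting. Per kb of canonical transcript, the median of the 9 genes was 2056 normalized counts, against 91.8 over all 19001 protein-coding genes and 248 over the 12134 of those with a mean over 50. The ratio to that last median was 8.28.

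**Figure D1:**
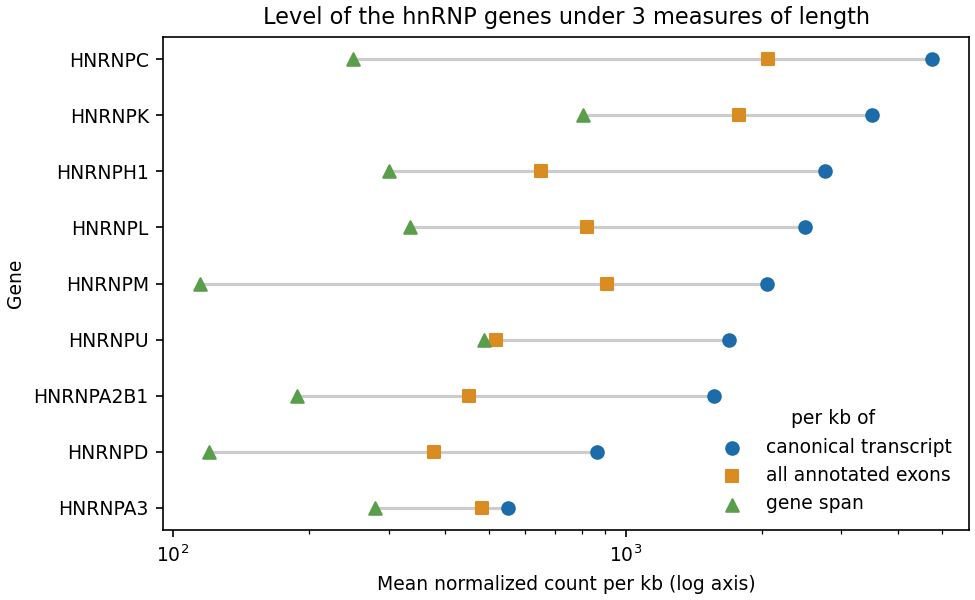
The level of each of the 9 measured hnRNP genes in mean normalized counts per kb, on a log axis, with circles for the canonical transcript, squares for all annotated exons and triangles for the gene span. HNRNPC is the highest per kb of canonical transcript, at 4758, but stands at 249 per kb of span, below HNRNPK at 807. The points are means over 4 libraries and carry no replicate error, and the counting SD is smaller than the symbols.

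The order of the genes depended on the length used. Per kb of canonical transcript it ran HNRNPC, HNRNPK, HNRNPH1, HNRNPL, HNRNPM, HNRNPU, HNRNPA2B1, HNRNPD, HNRNPA3. Per kb of gene span it ran HNRNPK, HNRNPU, HNRNPL, HNRNPH1, HNRNPA3, HNRNPC, HNRNPA2B1, HNRNPD, HNRNPM. Of the 36 pairs of genes, 20 kept their order under all 3 lengths. Per unshared kb of canonical transcript 17 of those 20 kept it, while HNRNPK then stood below HNRNPL, and HNRNPH1 and HNRNPU stood below HNRNPA3. The highest gene exceeded the lowest 8.63-fold per kb of canonical transcript, 5.46-fold per kb of exons and 7.03-fold per kb of span. The first of these is HNRNPC over HNRNPA3, and per unshared kb the range was 5.51-fold, HNRNPC over HNRNPD. All 8 pairs of neighbours in the first order differed by more than the 95% counting interval of the difference. The closest pair was HNRNPU over HNRNPA2B1, with a difference of 122 ± 29.4 normalized counts per kb (95% counting interval). These intervals cover counting error only, since the spread between the 2 replicates of a fraction cannot be had from a mean over all libraries. Whether neighbours differ beyond replicate spread was therefore not tested.

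Of the A/B genes, HNRNPA2B1 and HNRNPA3 were measured, and both encode proteins with paired RNA recognition motifs that act in splicing and in RNA transport. HNRNPA2B1 (ENSG00000122566, chr7:26171151-26201529, minus strand) had a mean normalized count of 5703, with a counting SD of at most 0.762% of the mean. Its level was 1572 per kb of its 3628-base canonical transcript and 188 per kb of its span. GENCODE 44 lists 49 transcripts for it, of which 35 are marked as targets of nonsense-mediated decay and 7 as protein coding, the largest number of decay targets in the group. HNRNPA3 (ENSG00000170144, chr2:177212694-177223959, plus strand) had a mean of 3147, with a counting SD of at most 1.03% of the mean. Its canonical transcript is 5710 bases long, and the level of 551 per kb of that length was the lowest of the 9 genes. It was in place 5 per kb of span, at 279, and in place 4 per unshared kb, at 3275. The latter rests on 961 unshared bases, a small part of its transcript. HNRNPA0, a gene of the same family without introns, stood at 256 per kb of canonical transcript, below HNRNPA3 under all 3 lengths, with HNRNPA3 over HNRNPA0 between 1.09-fold and 2.16-fold, and 12.8-fold per unshared kb. HNRNPA2B1 was 6.15-fold over HNRNPA0 per kb of canonical transcript, but the ratio was 0.734 at its lowest over the 3 lengths, so their order was not settled.

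HNRNPC (ENSG00000092199, chr14:21209136-21269494, minus strand), whose protein binds uridine-rich tracts of nascent RNA as part of the hnRNP particle, was the highest of the group per kb of canonical transcript. Its mean normalized count was 15059, which rests on 45454 to 80775 reads or read pairs over the 4 libraries and has a counting SD of at most 0.469% of the mean. The level was 4758 per kb of its 3165-base canonical transcript, 2065 per kb of exons and 249 per kb of span. The gene span is 19.1 times as long as the canonical transcript, the largest such ratio in the group. RALY, a related gene, stood at 485 per kb of canonical transcript, and HNRNPC exceeded it between 5.15-fold and 9.81-fold over the 3 lengths.

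HNRNPD (ENSG00000138668, chr4:82352498-82374503, minus strand) encodes AUF1, which binds AU-rich elements and acts in mRNA decay. Its mean was 2650, with a counting SD of at most 1.12% of the mean, from 7998 to 14214 reads or read pairs. Its level was 864 per kb of canonical transcript, 378 per kb of exons and 120 per kb of span. HNRNPAB, a related gene, was higher under all 3 lengths, by 1.99-fold to 3.80-fold, and by 3.91-fold per unshared kb. HNRNPDL stood at 737 per kb of canonical transcript, and its order against HNRNPD changed with the length used.

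HNRNPH1 (ENSG00000169045, chr5:179614178-179634784, minus strand) encodes a protein that binds runs of G and regulates splicing. Its mean was 6173, with a counting SD of at most 0.733% of the mean, and its level was 2756 per kb of its 2240-base canonical transcript. All annotated exons together are 4.23 times as long as that transcript, and 19 of its 49 listed transcripts are marked as retained introns, so its level per kb of exons was 651. Its relatives HNRNPH2, at 336, and HNRNPH3, at 633 per kb of canonical transcript, were both lower under all 3 lengths. HNRNPH1 exceeded HNRNPH2 by 1.94-fold to 8.21-fold and HNRNPH3 by 2.35-fold to 4.35-fold, the latter 1.22-fold per unshared kb. HNRNPF stood at 2344 per kb of canonical transcript, and HNRNPH1 over HNRNPF ranged from 0.354 to 1.18, so their order was not settled.

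HNRNPK (ENSG00000165119, chr9:83968083-83980631, minus strand) encodes a KH domain protein that binds C-rich RNA and DNA. Its mean was 10131, with a counting SD of at most 0.572% of the mean. It was in the top 2 of the group per kb of canonical transcript, at 3507, and per kb of exons, at 1777, and was the highest per kb of span, at 807. It was above HNRNPH1, HNRNPL, HNRNPM, HNRNPU, HNRNPA2B1, HNRNPD and HNRNPA3 under all 3 lengths, but below HNRNPL per unshared kb, at 4123 against 4561. The related poly(C)-binding gene PCBP2 was lower under all 3 lengths, with HNRNPK 1.42-fold to 3.001-fold over it, but per unshared kb PCBP2 was 3.59-fold higher than HNRNPK. The same count of PCBP2 gave 2475 per kb of canonical transcript and 14807 per unshared kb, so the latter rests on a small part of its transcript. PCBP1, which has a single exon of 1727 bases here, stood at 853 per kb, and HNRNPK over PCBP1 ranged from 0.946 to 4.11. All of PCBP1 lies inside other genes, so it has no unshared level.

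HNRNPL (ENSG00000104824, chr19:38836370-38852347, minus strand) encodes a protein that binds CA repeats and regulates splicing. Its mean was 5336, with a counting SD of at most 0.788% of the mean, and its level was 2491 per kb of its 2142-base canonical transcript. HNRNPLL, its paralogue, stood at 280.1 per kb of canonical transcript, and HNRNPL exceeded it by 4.20-fold to 12.0-fold over the 3 lengths. PTBP1, the polypyrimidine tract-binding protein gene, was higher than HNRNPL under all 3 lengths, by 1.06-fold to 1.67-fold. Per unshared kb the order turned, with HNRNPL at 4561 and PTBP1 at 2649, so it was not settled.

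HNRNPM (ENSG00000099783, chr19:8444767-8489114, plus strand), a splicing regulator that binds GU-rich RNA, had a mean of 5092, with a counting SD of at most 0.807% of the mean. Its level was 2056 per kb of its 2477-base canonical transcript, the median of the group, but 115 per kb of span, the lowest of the group. Its span is 17.9 times as long as that transcript. HNRNPU (ENSG00000153187, chr1:244840638-244864560, minus strand), also known as scaffold attachment factor A, binds RNA and chromatin and acts in nuclear organisation. Its mean was 11633, with a counting SD of at most 0.534% of the mean. Per kb of its 6867-base canonical transcript the level was 1694. Its annotated exons, joined, cover 22512 of the 23923 bases of the span, and 10 of its 32 listed transcripts are marked as retained introns, so its levels per kb of exons and of span were close, at 517 and 486. HNRNPUL2 was lower under all 3 lengths, with HNRNPU 1.95-fold to 6.16-fold over it, but 10.3-fold higher than HNRNPU per unshared kb. The same count of HNRNPUL2 gave 275 per kb of canonical transcript and 19631 per unshared kb. The latter level therefore rests on a very small part of its transcript, and the order was not settled. HNRNPUL1 stood at 1862 per kb of canonical transcript, and HNRNPU over HNRNPUL1 ranged from 0.473 to 3.01.

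Beside the 9 genes, 17 other hnRNP genes were listed and all have a row. Their median per kb of canonical transcript was 853, from 256 in HNRNPA0 to 4156 in RBMX, an X-linked splicing factor gene. SYNCRIP stood at 1674 and HNRNPR at 569.6 per kb of canonical transcript. The 12 SR factor genes, which encode serine- and arginine-rich splicing factors, had a median of 1139, from 119 in SRSF12 to 2839 in SRSF2. The 12 genes of small nuclear ribonucleoproteins, the core of the spliceosome, had a median of 1889, from 161 in SNRPB2 to 7371 in SNRPD2. The core hnRNP median of 2056 was above these 3 medians, and all 4 lists overlapped in range. The core genes were listed as abundant hnRNPs, so a higher level than in the other hnRNP genes was partly built into the choice. Per kb of gene span the medians were 279 in the core hnRNP genes, 255 in the other hnRNP genes, 154 in the SR factor genes and 108 in the small nuclear ribonucleoprotein genes, against 7.72 in all protein-coding genes. Per unshared kb they were 2756 over 9 core hnRNP genes, 2254 over the 15 other hnRNP genes with unshared bases, 1139 over 10 SR factor genes and 2314 over 12 small nuclear ribonucleoprotein genes, against 131 over 17048 protein-coding genes. Some levels per unshared kb, as in HNRNPUL2, PCBP2 and HNRNPA3, rest on a small part of the transcript. The medians describe lists chosen by name, and no test between lists was made.

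**Figure D2:**
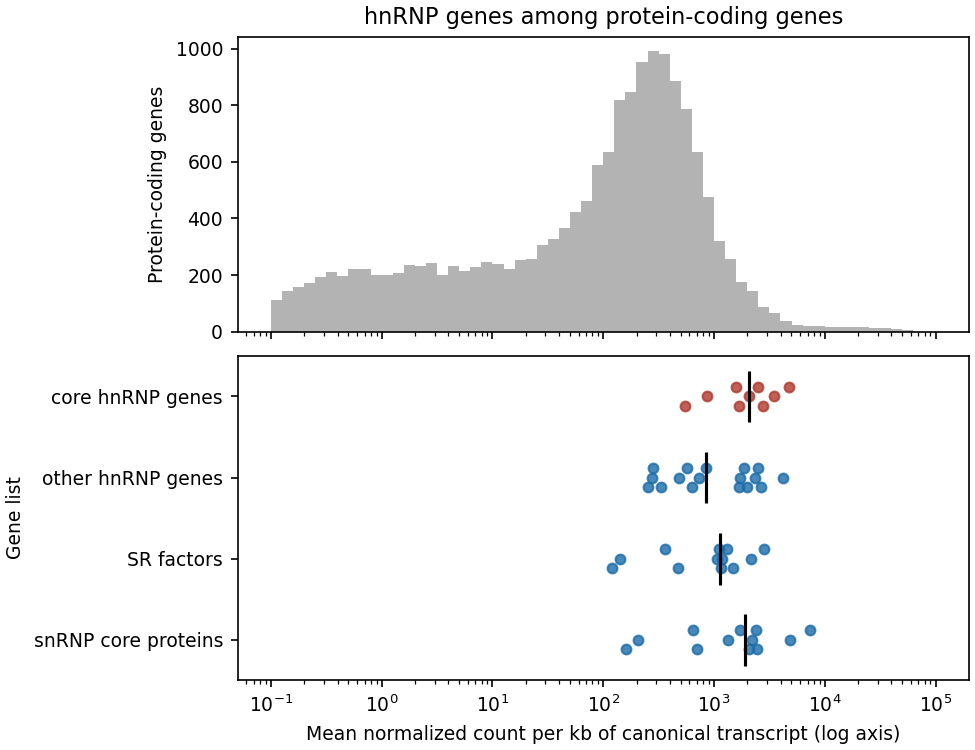
The level per kb of canonical transcript, on a log axis, of protein-coding genes as a histogram (top, genes above 0.1 per kb) and of each gene in 4 lists (bottom, 1 point a gene, black line at the median, vertical offsets only to separate points). The 9 core hnRNP genes lie between 551 and 4758, right of the median of 248 of the protein-coding genes with a mean over 50.

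Other genes annotated over the same bases bear on what could be counted, since the authors left out stretches shared by several genes. In GENCODE 44, the canonical transcripts of HNRNPA2B1, HNRNPC, HNRNPD and HNRNPH1 share no base with another gene. HNRNPA3 shares 83.2% of its canonical transcript with other genes, nearly all of it with NFE2L2 on the opposite strand. HNRNPL shares 45.4% with genes on its own strand, ENSG00000268083 and ENSG00000269688. HNRNPK shares 14.95%, HNRNPU 11.1% and HNRNPM 5.53%, in each case with genes of the opposite strand. Dividing by the unshared bases only, HNRNPA3 would stand at 3275 and not 551 per kb, which is place 4 and not place 9 in the group, and HNRNPL would stand at 4561, just under HNRNPC at 4758. For HNRNPA3 this divides all its counts, with any reads over introns, by 961 of its 5710 canonical bases. Whether the authors' removal of shared stretches took strand into account is not given in the sources used here, so these are values under an assumption. The overlaps here also include readthrough genes, whose transcripts the authors removed from their annotation. HNRNPA1 (ENSG00000135486, chr12:54280193-54287088, plus strand) lies wholly inside ENSG00000258344, a long non-coding RNA gene on the same strand. Of the 1359 protein-coding genes whose canonical transcript lies wholly inside other genes of their strand, 43.6% have a row in the table, against 99.8% of the 16772 with no such overlap. Whether this overlap is the reason that HNRNPA1 has no row was not tested.

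**Figure D3:**
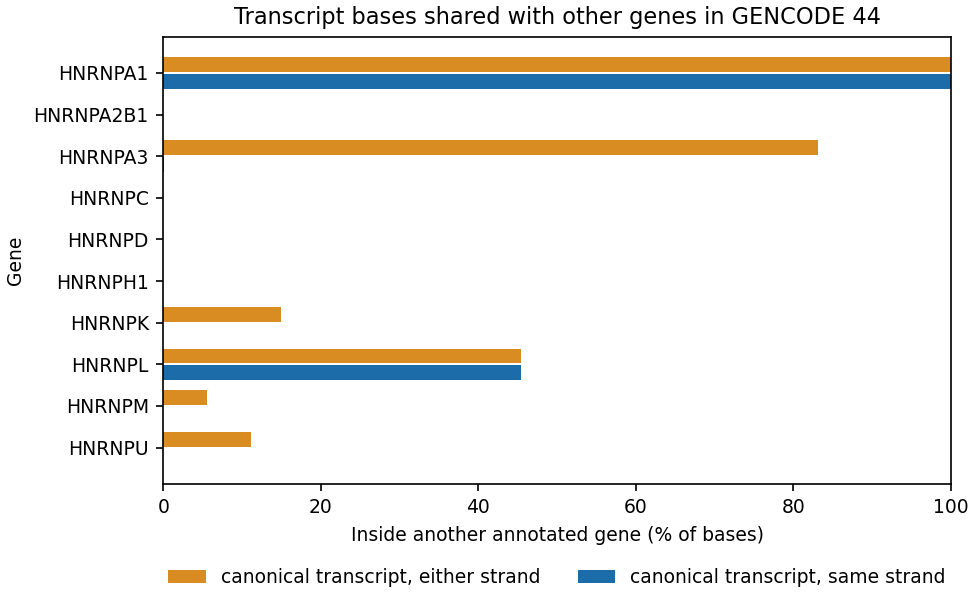
The share of each canonical transcript that lies inside another annotated gene in GENCODE 44, in percent of bases, for genes on either strand (upper bar) and on the same strand only (lower bar). HNRNPA1 is at 100% in both, HNRNPL at 45.4% in both, and HNRNPA3 at 83.2% for either strand with almost none on its own strand.

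Copies elsewhere in the genome were counted as windows of 100 bases, the read length, that occur exactly outside the gene itself. HNRNPA1 had the highest share, with 1211 of 3645 windows, or 33.2%. HNRNPA3 followed with 18.8% and HNRNPC with 15.8%, then HNRNPL with 8.03%, HNRNPK with 1.68% and HNRNPH1 with 0.187%. HNRNPA2B1, HNRNPD, HNRNPM and HNRNPU had no copied window of this length. All 485 copied windows of HNRNPC lie inside C2orf88 on chromosome 2, the locus of the printed copy, and the row of C2orf88 has a mean normalized count of 170. How reads with several places in the genome were treated is not stated for these libraries, and how far the copies lower or raise a level was not tested.

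**Figure D4:**
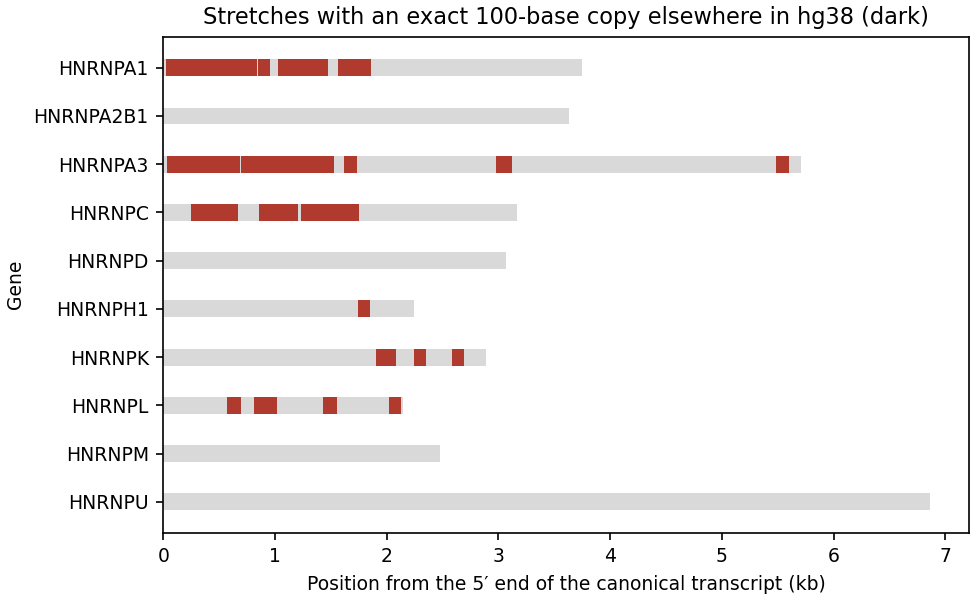
The canonical transcript of each of the 10 hnRNP genes drawn to scale from its 5′ end in kb (grey), with stretches covered by 100-base windows that occur exactly elsewhere in hg38 (dark). The dark stretches lie mainly in the first 2 kb of HNRNPA1, HNRNPA3 and HNRNPC, and HNRNPA2B1, HNRNPD, HNRNPM and HNRNPU have none.

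Rows of the table named as pseudogenes of the hnRNP genes held few counts, and none had a mean over 50. HNRNPA1 has 60 such rows, of which 23 are above 0, and their means sum to 89.0 normalized counts. The highest is HNRNPA1P48, named HNRNPA1L3 in GENCODE 44, at 33.95. For the measured genes, the sum of the pseudogene rows, in counts not divided by length, was at most 0.406% of the gene's own mean, in HNRNPL, where HNRNPLP2 stood at 18.6. HNRNPCP2 and HNRNPA3P6, where the printed copies of HNRNPC and HNRNPA3 lie, had no mean under their identifiers. The sums therefore do not show what was counted at these copies. HNRNPK had 5 rows with a sum of 20.8, the highest being HNRNPKP4 at 14.0. HNRNPA3 had 13 rows with a sum of 3.13, the highest being HNRNPA3P10 at 1.19. In the other genes the highest pseudogene rows were HNRNPCP4 at 0.835, HNRNPDP1 at 1.39, HNRNPH1P3 at 0.773, HNRNPUP1 at 1.01 and HNRNPMP1 at 0, and HNRNPA2B1 has none.

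Over all rows, the 4 libraries together held between 70692651 and 125623986 counted reads or read pairs, bounds read from the low values of the table. The 51740 rows hold 51699 distinct identifiers, and the repeats entered this sum and the total behind the share of 0.277%. The cell line's label was set against marker genes by the level per kb of canonical transcript. VIM, NEFM, NEFL, KRT18 and KRT8, which HEK293 cells are known to express, ranged from 494 to 8478, while PTPRC, CD3E, ALB and MYH6, markers of blood, liver and heart, were at 0.347 or lower, GFAP was at 3.56 and COL1A1 at 35.997.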

How the data were processed

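RNA from formaldehyde-crosslinked HEK293T cells was sequenced as 2 nuclear and 2 cytoplasmic libraries. The authors aligned reads to hg38 with STAR and counted them with featureCounts 2.0.2, with a minimum overlap of 20 bases, over GENCODE 34 and NCBI genes from which stretches shared by several genes and readthrough transcripts had been removed. The authors then normalized the counts with DESeq2. The deposited table gives 1 value per gene used here, the mean normalized count over all 4 libraries (a signal with no value per library). Its 5 columns of the authors' comparison of the fractions (fold change, its error, statistic, p-value, adjusted p-value) were not used, so no fraction test was run.

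Lengths, coordinates, overlaps and copies came from GENCODE 44 on hg38, a later release than the authors' on the same build. What 1 read or read pair in each library adds to the mean was recovered from 9806 low means (2 or under), all of which were whole combinations of 4 steps within 2e-06. This bounds the counting error and the depth of a mean. It covers counting error only, and assumes counts to be independent. Whether the mates of a pair were counted singly is not stated for these libraries. If they were, the counting SD could exceed the bounds given. Python 3.11.15 with numpy 2.4.6, pandas 2.3.3, scipy 1.17.1 and numba 0.67.0 was used, and the step recovery was tested on simulated data.

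Named genes were the 10 listed genes, the other hnRNP list, the highest pseudogene of each gene and the extremes of the other lists. The value of 1 gene of the other hnRNP list is not reported here. Genes and lists were chosen with earlier results of these data known, and the pairs of relatives and neighbouring genes after values were seen. Alternatives changed the length, the genes ranked, the total, and the window size.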

Additional observations from a re-analysis of the deposited data

How the results depend on the processing

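With protein-coding genes only in the total, the 9 genes' combined share was 0.329% and without the 10 highest genes it was 0.323%, against 0.277% over all rows and 0.277% with their pseudogene rows added. The median of the 9 genes, 5703 normalized counts, was 5520 without HNRNPC and 5938 without HNRNPD. Per kb it was 2056 (canonical transcript), 651 (exons) and 279 (span), a change of unit. The 9 genes stood above 90.8% to 99.5% of protein-coding genes by the mean not divided by length, 85.3% to 98.99% per kb of canonical transcript, 88.0% to 98.9% per kb of exons and 91.8% to 98.8% per kb of span. With windows of 50 bases, the copied share rose to 40.1% in HNRNPA1, 35.6% in HNRNPA3, 33.7% in HNRNPC and 30.3% in HNRNPK, and stayed at 0 in HNRNPA2B1 and HNRNPM. The per-kb levels by canonical transcript, by unshared bases and by window of 50 bases were added after seeing the data. The planned edgeR and DESeq2 fits, the filter on low counts and the leave-one-out fits were not run. No paired analysis was possible because the table has no value per library. A mean over 4 libraries carries no replicate spread.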

Other observations

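Several hnRNP genes share a start region with a gene of the opposite strand. CBX3, which encodes a heterochromatin protein, starts 367 bases from the start of HNRNPA2B1 and had a mean normalized count of 1817, or 881 per kb of canonical transcript, against 1572 per kb in HNRNPA2B1. RMI1, a genome stability gene, starts 167 bases from the start of HNRNPK and had a mean of 514, or 156 per kb of canonical transcript, against 3507 per kb in HNRNPK. HNRNPD-DT, a divergent transcript, starts 361 bases from the start of HNRNPD and had a mean of 27.1, or 36.8 per kb of canonical transcript, against 864 per kb in HNRNPD. NFE2L2, which lies opposite HNRNPA3, had a mean of 1297, or 530 per kb of canonical transcript. These neighbours were chosen after their values were seen.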
